A study of Mus musculus with 16 samples.

Results

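The genes described here are 37 type I interferon-stimulated genes, a fixed list of transcripts that cells raise when interferon alpha or beta binds its receptor. A gene of the list was kept where its Ensembl mouse identifier had at least 10 counts over the 16 tumors sequenced, and all 37 listed genes met this, of 22298 gene identifiers in the count files. The tumors came from wild-type mice, 6 weeks old, that received 500000 MFC cells (a mouse forestomach carcinoma line) in the peritoneal cavity. The 8 control tumors, called the vehicle group, came from mice given PBS, and the 8 tumors of the IL-33 treatment group came from mice given the cytokine IL-33 at 20 μg/kg every 2 days, injected into the peritoneal cavity. All tumors arose from 1 carcinoma line, and each sample is a piece of whole tumor in which cancer cells and host cells were sequenced together. The labels do not tie a tumor to an animal, and the methods give fewer mice per group for this tumor model than tumors were sequenced, so tumors may share an animal and the p-values then measure only the spread between samples.

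Type I interferons bind a receptor made of IFNAR1 and IFNAR2, whose kinases JAK1 and TYK2 phosphorylate STAT2. With IRF9 it forms part of a complex that binds the interferon-stimulated response element, a short DNA motif near the start of many of the genes below. The products bind or cut viral RNA, sense foreign nucleic acid, modify proteins with ISG15 or ADP-ribose, and feed back on the pathway, and in tumors these genes are known as a readout of interferon made by or acting on cancer and immune cells.

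Between 14139268 and 24290794 reads were counted on genes in a vehicle tumor, and between 16569613 and 24288893 in an IL-33 tumor, and the gene of the list with the fewest counts, Mx2, had 5392 in all. Levels are given as CPM, counts per 1000000 counts after TMM scaling, a factor per tumor that lay between 0.895 and 1.10 except in vehicle replicate 4 (0.640) and IL-33 replicate 7 (1.24). Both of these tumors stood apart. IL-33 replicate 7 held transcripts of uterus and oviduct, with a summed level of 9 marker genes of 1318 CPM against 16.1 to 26.6 CPM in the 15 other tumors, and vehicle replicate 4 held the most haemoglobin and red cell transcripts, 20009 CPM summed over 5 markers against 46.7 to 2291 CPM elsewhere. The epithelial keratins Krt8 (165 to 1524 CPM) and Krt19 (43.1 to 889.5 CPM) were present in every tumor, whereas the epithelial markers Epcam, Krt18 and Cldn4 stayed at or below 2.18 CPM in all tumors but IL-33 replicate 7.

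None of the 37 genes passed the test between the groups. The fitted log2 fold change of IL-33 over vehicle was above 0 for 34 genes and below 0 for 3 (Isg20, Bst2 and Ifi35), with a median of 0.23 and a range from -0.24 (Ifi35) to 0.54 (Cmpk2), beside a median of 0.06 over the 16817 genes tested, of which 58.3% were above 0. Standard errors of these log2 fold changes, derived from the fold change and the F statistic of the test, ran from 0.15 (Trim25) to 0.52 (Isg15). For 30 of 37 genes the difference was smaller than its standard error. By edgeR's quasi-likelihood test 0 of 37 genes had an adjusted p under 0.05, the lowest being 0.666, and 0 of 37 had an unadjusted p under 0.05 in either direction, where 9.99% of all genes tested passed it as higher under IL-33 and 1.17% as lower. DESeq2 also gave 0 at either threshold, and limma voom with sample quality weights gave 0 adjusted and 1 unadjusted (Oasl1, higher, adjusted p = 0.836). Of the 16817 genes tested, voom had 522 higher and 444 lower at the unadjusted threshold. The CPM of the groups overlapped for all 37 genes, as they did for all genes tested, since 0% of these had groups that did not overlap. Single tumors weighed on the size of the differences: the median log2 fold change of the 37 genes was 0.09 without IL-33 replicate 3 or IL-33 replicate 4, with 26 of 37 above 0, and 0.41 without vehicle replicate 7. In whole tumors a lower level can mean fewer cells that express a gene or less RNA of it per cell, and these cannot be told apart.

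Without IL-33 replicate 7 none of the 37 genes passed either. The median log2 fold change of the 37 genes became 0.36, beside -0.01 over the 15803 genes then tested, and 35 of 37 were above 0 (47.9% of all genes). Of the 37 genes, 0 had an unadjusted p under 0.05 in either direction by edgeR, against a background of 1.83% of genes higher and 2.29% lower, and the lowest adjusted p was 0.964 (Ifih1 among others). DESeq2 without this tumor called 0 members as well.

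**Figure D1:**
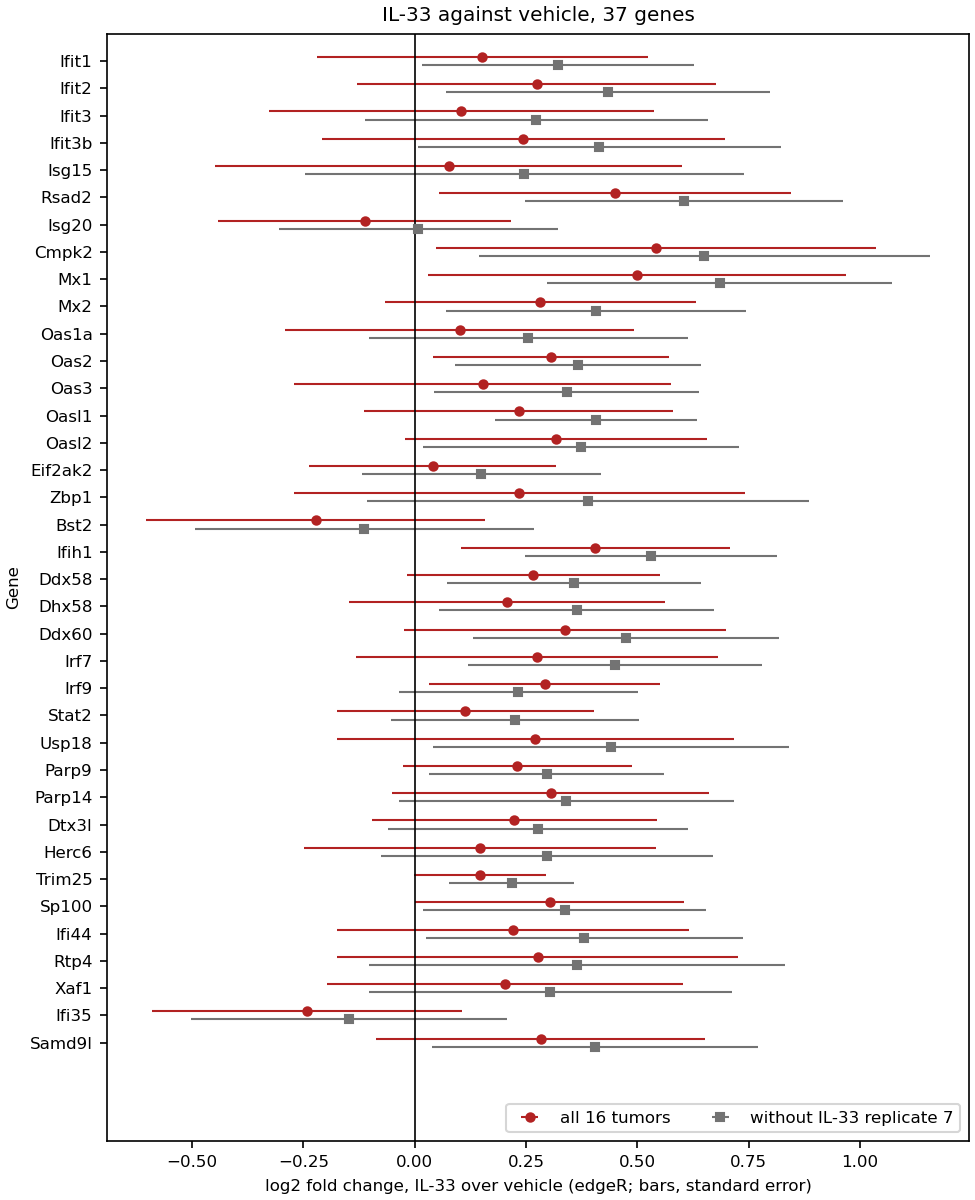
Log2 fold change of IL-33 over vehicle (horizontal axis) of the 37 genes (vertical axis) from edgeR, with all 16 tumors (circles) and without IL-33 replicate 7 (squares); bars are standard errors. Nearly all points lie above 0, from -0.24 to 0.54 with all tumors, and 0 of 37 genes passed the test in either fit.

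The level of the genes differed far more between tumors of the same group than between the groups. Averaged over the 37 genes, log2 CPM was 5.72 ± 0.39 (SD, n = 8) in vehicle tumors and 5.75 ± 0.90 (SD, n = 8) in IL-33 tumors, a difference of 0.032 that became 0.20 without IL-33 replicate 7. It was below 0 when vehicle replicate 4 or 6 or IL-33 replicate 3, 4 or 8 was left out, to -0.12 at the lowest (without IL-33 replicate 4). This difference of mean logs is smaller than the fitted fold changes because edgeR compares mean counts, in which the highest tumors weigh most. Vehicle tumors ranged from 5.30 to 6.55 with a median of 5.66, and IL-33 tumors from 4.59 to 6.78 with a median of 5.72. Of the 8 IL-33 tumors, 3 (replicates 4, 3 and 8, at 6.78, 6.76 and 6.57) lay above every vehicle tumor and 3 (replicates 7, 6 and 2, at 4.59, 4.72 and 5.11) lay below every vehicle tumor. The vehicle group had 1 high tumor, replicate 7 at 6.55, and its 7 other tumors sat between 5.30 and 5.85. Added up, the 37 genes took from 0.134% (IL-33 replicate 6) to 0.573% (IL-33 replicate 4) of the counts of a tumor.

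**Figure D2:**
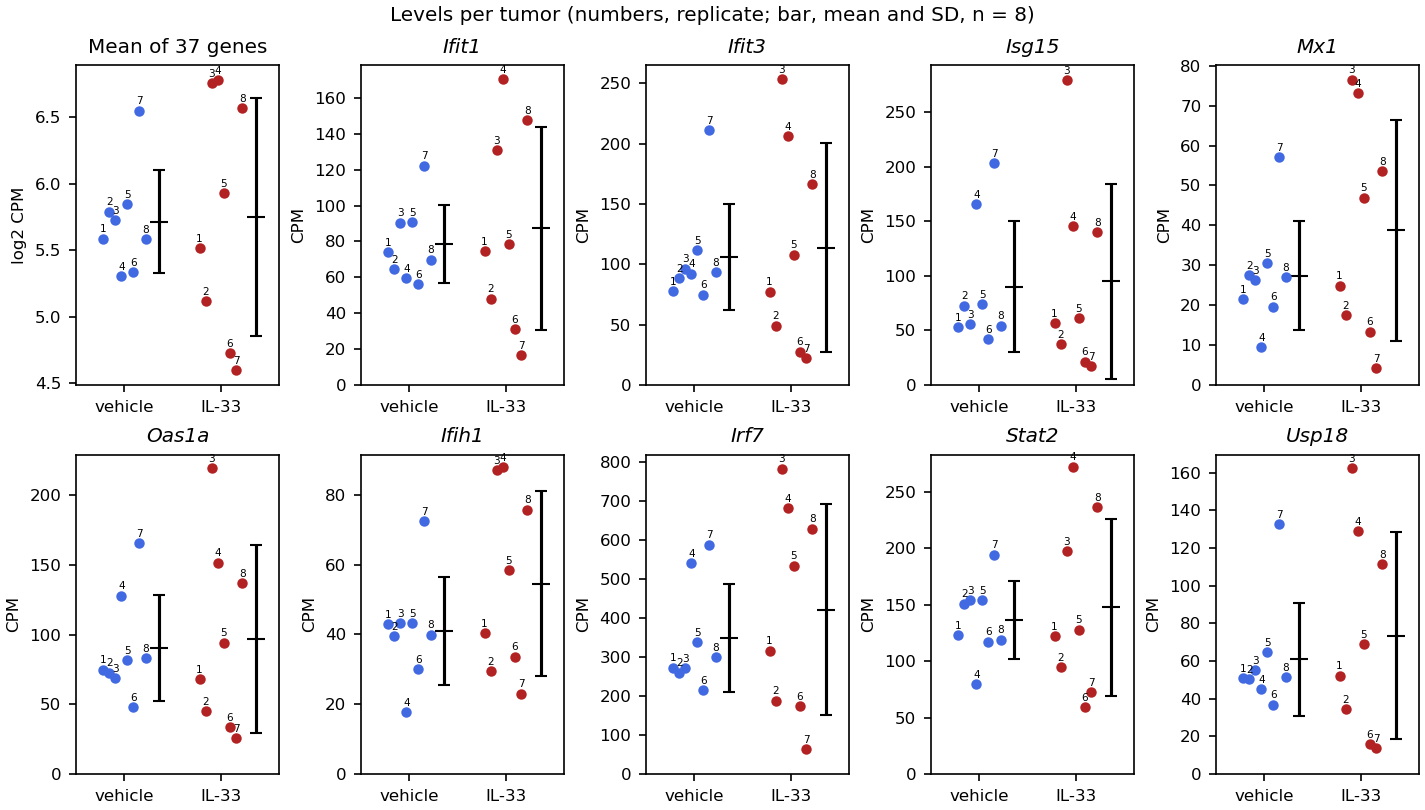
Mean log2 CPM of the 37 genes (first panel) and CPM of 9 of them (other panels) in each tumor, vehicle in blue and IL-33 in red, with replicate numbers beside the points and bars for mean and SD (n = 8). In the first panel 3 IL-33 tumors lie above every vehicle tumor and 3 lie below every vehicle tumor.

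The same few tumors were high for nearly every gene. IL-33 replicate 4 held the highest level of 17 genes and IL-33 replicate 3 that of 15, and the 4 highest tumors of the mean (IL-33 replicates 3, 4 and 8 and vehicle replicate 7) were the 4 highest for 26 of 37 genes, with at least 3 of them among the top 4 for 34 genes. The lowest level was in IL-33 replicate 7 for 16 genes, IL-33 replicate 6 for 13 and vehicle replicate 4 for 8. Over the 16 tumors the median Pearson correlation of log2 CPM among the 666 pairs of members was 0.75, and it was 0.65 within the vehicle group and 0.88 within the IL-33 treatment group (n = 8 tumors each, which share 1 scaling factor per library). Between members and all other genes tested the median was -0.06. Without IL-33 replicate 7 and vehicle replicate 4 the pairs had a median of 0.90. Isg20, an exonuclease of single-stranded RNA, did not follow the rest, with a mean correlation of -0.17 with the other 36 genes, and Trim25 (0.31) and Oasl1 (0.38) followed them least among the remainder.

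**Figure D3:**
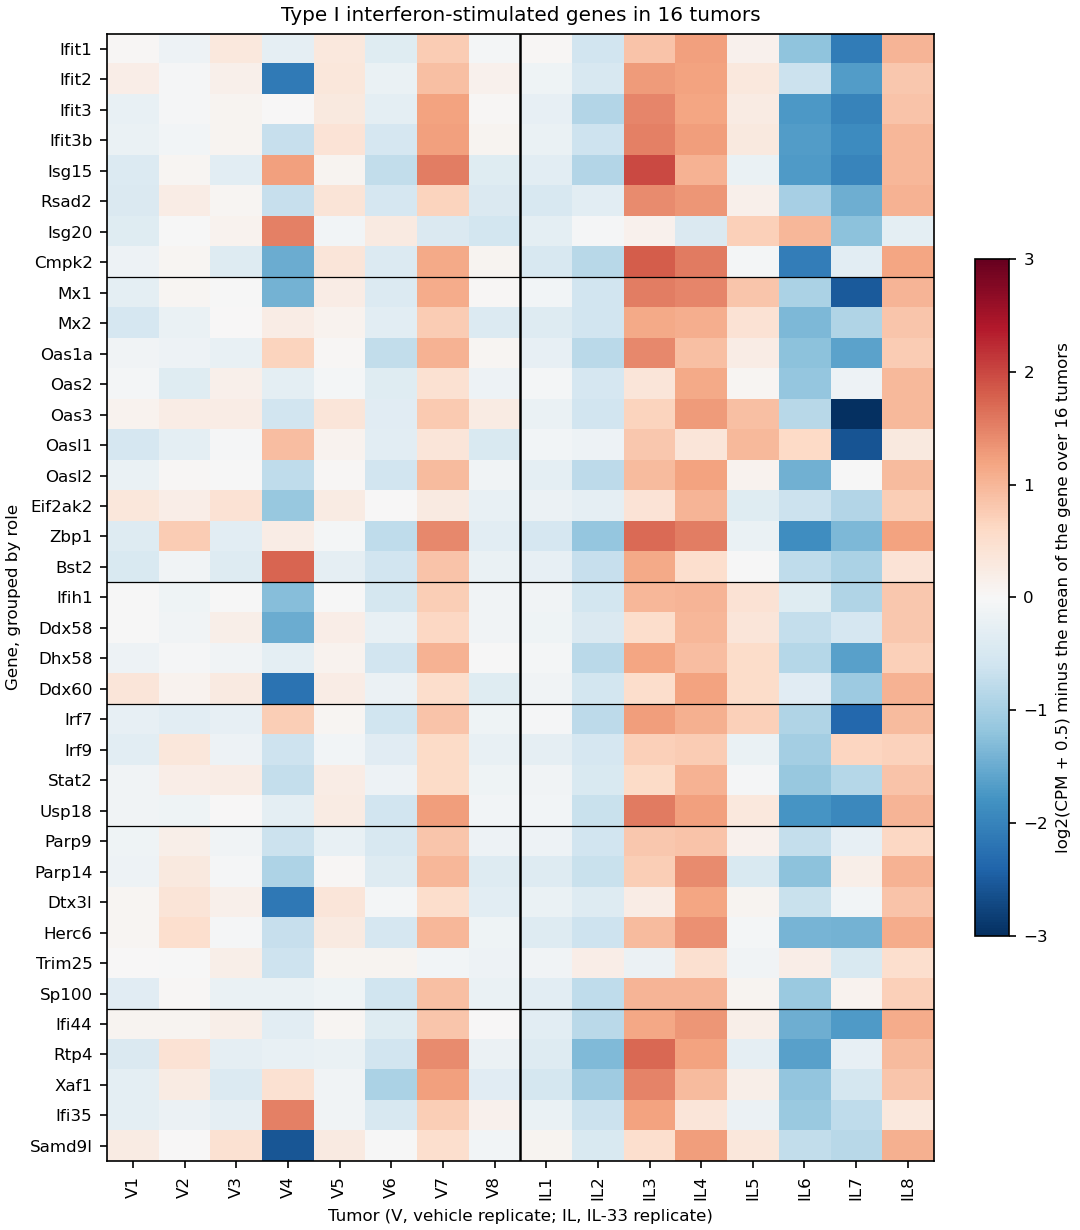
Level of the 37 genes (rows, grouped by role with lines between groups) in the 16 tumors (columns, vehicle left and IL-33 right of the line), as log2(CPM + 0.5) minus the mean of each gene; red is high and blue is low. Vehicle replicate 7 and IL-33 replicates 3, 4 and 8 are red over most rows, IL-33 replicates 2, 6 and 7 are blue over most rows, and vehicle replicate 4 mixes both.

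The first group of effectors holds the IFIT family, which binds viral RNA and blocks its translation, the ubiquitin-like modifier Isg15, the radical-SAM enzyme Rsad2 (viperin) with its neighbour Cmpk2, a mitochondrial nucleotide kinase, and Isg20. Of these 8 genes, 0 passed the test and 7 had a log2 fold change above 0, with a median of 0.20. Ifit1 (chr19:34640871-34650009 in build mm10, by the GENCODE annotation, as for the genes below) lay at 56.2, 71.9 and 122 CPM (lowest, median, highest) in vehicle tumors and at 16.6, 76.5 and 170.5 CPM in IL-33 tumors. The medians were close, and the IL-33 tumors reached both lower and higher than the vehicle tumors. The log2 fold change was 0.15 ± 0.37 (SE), with an adjusted p of 0.936 by edgeR and an exact permutation p of 0.739, two-sided, for log2(CPM + 0.5) over the 12870 ways to split the tumors.

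The promoter of Ifit1 is printed to show the letters that were searched for near the start of each gene. These were GAAANNGAAA on either strand, the core of the interferon-stimulated response element, in RefSeq promoters of build GRCm38.p6 reaching from 250 bases before to 50 after the start site. Of the 37 genes, 28 were found in the promoter table by symbol, and 13 of these 28 (46.4%, 95% Wilson interval 29.5 to 64.2%) held the core against 1079 of 27025 genes in the table (3.99%). Mx1, Mx2, Oas2, Zbp1, Dhx58, Usp18, Parp9, Parp14 and Rtp4 were not in the table. The interval treats the 28 genes as independent draws, though they were listed as interferon-induced and the near-copies Ifit3 and Ifit3b count separately. No test was run on these shares. With the letters CT after the core it was 7 of 28 (25%) against 82 of 27025 (0.303%). Of the 21 matches, which overlap one another in Isg15, Oas1a and Bst2, 18 lay before the start site, at a median of 84.5 bases from it. The 250 bases before the start of Ifit1 (chr19:34640639-34640888, plus strand) are given 5′ to 3′ with both matches in capitals, which read as the reverse complement because they lie on the other strand.
Ifit1: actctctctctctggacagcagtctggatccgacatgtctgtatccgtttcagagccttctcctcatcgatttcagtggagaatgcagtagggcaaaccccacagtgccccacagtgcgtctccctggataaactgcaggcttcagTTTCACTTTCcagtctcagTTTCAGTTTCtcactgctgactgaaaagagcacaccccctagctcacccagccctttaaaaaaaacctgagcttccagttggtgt

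Over all tumors Ifit2, another RNA-binding member of the family, ranged from 10.5 to 115 CPM with a log2 fold change of 0.27, and Isg20 ranged from 19.3 to 129.9 CPM, its highest value being in vehicle replicate 4. Ifit3 (chr19:34583531-34588731), which stabilises IFIT1 in its RNA-binding complex, lay at 74.8, 93.0 and 211 CPM in vehicle tumors and at 22.3, 92.7 and 253 CPM in IL-33 tumors. IL-33 replicates 3 and 4 and vehicle replicate 7 were the highest tumors, and 3 IL-33 tumors lay below every vehicle tumor. Its log2 fold change was 0.10 ± 0.43 (edgeR, adjusted p = 0.965). Ifit3 and its copy Ifit3b shared many sequences: 51.2% of the stretches of 50 bases in Ifit3 transcripts also occur in Ifit3b, so counts of either are uncertain. Ifit3b ranged from 5.00 to 57.1 CPM. The 84 bases around the matches in their promoters are identical at 84 of 84 positions, and those of Ifit3 are shown (chr19:34583353-34583436, plus strand).
Ifit3: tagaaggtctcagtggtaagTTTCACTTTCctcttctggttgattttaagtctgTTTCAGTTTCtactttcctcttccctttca

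Isg15 (chr4:156199424-156200818), whose product is attached to other proteins, had the second highest level per length of the list, 122 CPM per kb of exon averaged over all tumors. In vehicle tumors it lay at 42.2, 64.4 and 203 CPM, and in IL-33 tumors at 17.4, 59.1 and 279 CPM. The median was lower in the IL-33 treatment group while the mean was higher, and the only IL-33 tumor above every vehicle tumor was replicate 3. The log2 fold change was 0.08 ± 0.52, and it was 0.25 ± 0.49 without IL-33 replicate 7. Rsad2 (chr12:26442746-26456452) was among the least abundant, at 9.39, 13.8 and 25.1 CPM in vehicle and 5.28, 14.9 and 42.5 CPM in IL-33 tumors. Here 3 IL-33 tumors lay above every vehicle tumor and 2 below, and the log2 fold change of 0.45 ± 0.40 had an adjusted p of 0.733 by edgeR. Next to it on the chromosome, Cmpk2 (chr12:26469204-26479837) had the largest fitted change of the list, 0.54 ± 0.49, on levels of 4.53, 13.2 and 30.4 CPM in vehicle and 2.84, 12.0 and 49.3 CPM in IL-33 tumors. The 3 highest IL-33 tumors exceeded every vehicle tumor, yet the median of the IL-33 tumors was the lower one. The matches of Isg15 (chr4:156200855-156200916, minus strand) follow one another in a run of GAAA repeats, while Rsad2 (chr12:26456543-26456592, minus strand) has 1 match on the other strand, and both are shown for comparison with Ifit1.
Isg15: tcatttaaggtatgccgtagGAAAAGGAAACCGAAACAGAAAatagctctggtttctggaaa
Rsad2: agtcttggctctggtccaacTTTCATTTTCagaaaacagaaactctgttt

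The second group holds the dynamin-like GTPases Mx1 and Mx2, the OAS enzymes that make the 2-5A signal for RNase L and their relatives, the kinase Eif2ak2 (PKR), the Z-nucleic acid sensor Zbp1 and the membrane tether Bst2. None of the 10 passed the test, 9 had a log2 fold change above 0, and the median was 0.23. Mx1 (chr16:97447035-97462907) varied most among them in ratio after Oas3, by 18.3-fold between the highest and lowest tumor. It lay at 9.51, 26.6 and 57.0 CPM in vehicle tumors and at 4.18, 35.9 and 76.5 CPM in IL-33 tumors. IL-33 replicate 7 was the lowest of all, and without it the log2 fold change moved from 0.50 ± 0.47 to 0.68 ± 0.39 (edgeR, adjusted p = 0.964). Mx2 (chr16:97535308-97560900), at 11.1, 15.0 and 27.5 CPM in vehicle and 5.92, 16.9 and 35.7 CPM in IL-33 tumors, had 3 IL-33 tumors above and 3 below all vehicle tumors. Its log2 fold change was 0.28 ± 0.35.

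Oas1a (chr5:120896256-120907521) lay at 48.1, 78.4 and 166 CPM in vehicle tumors and at 25.9, 81.1 and 219 CPM in IL-33 tumors, with nearly equal medians and a log2 fold change of 0.10 ± 0.39. Because 57.6% of its stretches of 50 bases also occur in Oas1g, its count is uncertain. Oas2 ranged from 27.1 to 135 CPM over all tumors, and the OAS-like genes Oasl1 and Oasl2 from 13.8 to 169 and from 31.8 to 202 CPM. Eif2ak2, the kinase that halts translation on double-stranded RNA, spanned 23.8 to 109 CPM, and Zbp1 17.6 to 216 CPM. Oas3 had the widest range of the list, 24.1-fold, set by IL-33 replicate 7 at 7.11 CPM against a median of 82.5 CPM in vehicle tumors. Bst2 (chr8:71534255-71537456) had the highest level per length, 449.8 CPM per kb, and was one of 3 genes with a log2 fold change below 0 (-0.22 ± 0.38, edgeR, adjusted p = 0.891). In vehicle tumors it lay at 234, 299.9 and 1177 CPM and in IL-33 tumors at 181, 325 and 772 CPM. The highest of these is vehicle replicate 4, and without that tumor the log2 fold change of Bst2 became 0.18. The capitals below mark the core matches, 2 that overlap in each gene, in Oas1a (chr5:120907510-120907565, minus strand), where they end 4 bases before the start site, and in Bst2 (chr8:71537567-71537622, minus strand).
Oas1a: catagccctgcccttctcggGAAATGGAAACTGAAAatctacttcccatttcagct
Bst2: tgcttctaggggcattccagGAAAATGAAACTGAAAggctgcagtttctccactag

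Among the 4 RNA sensors of the RIG-I type, Ifih1 (MDA5), Ddx58 (RIG-I), Dhx58 (LGP2) and the related Ddx60, all log2 fold changes were above 0, with a median of 0.30, and 0 passed the test. Ifih1 (chr2:62595798-62646255), which senses long double-stranded RNA, had the lowest p of the list. In vehicle tumors it lay at 17.7, 41.4 and 72.5 CPM, and in IL-33 tumors at 23.0, 49.4 and 88.0 CPM. The 3 highest tumors were IL-33 replicates 4, 3 and 8, while the lowest was vehicle replicate 4. The log2 fold change was 0.41 ± 0.30 (edgeR, adjusted p = 0.666, exact permutation p = 0.329, higher than the vehicle mean in 4 of 8 IL-33 tumors), and 0.53 ± 0.28 without IL-33 replicate 7. The other sensors ranged from 20.3 to 117 CPM (Ddx58), 12.2 to 88.2 CPM (Dhx58) and 4.75 to 55.9 CPM (Ddx60) over all tumors, and vehicle replicate 4 was the lowest tumor for Ddx58 and Ddx60. The match of Ifih1 to the core lies after the start site, as do those of Ddx58 and Eif2ak2.

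The transcription factors and feedback genes were Irf7, the amplifier of interferon alpha transcription, Irf9 and Stat2 of the complex itself, and Usp18, which removes ISG15 and dampens receptor signalling. None of the 4 passed, and their median log2 fold change was 0.27. Irf7 (chr7:141262706-141266481) was abundant, at 215, 286 and 589 CPM in vehicle tumors and at 63.7, 426 and 784 CPM in IL-33 tumors. IL-33 replicate 7 had less than any other tumor, 3 IL-33 tumors lay above and 3 below all vehicle tumors, and the log2 fold change was 0.27 ± 0.41 (0.45 ± 0.33 without that replicate). Irf9 (chr14:55603571-55610030) was the one gene of these above its group median in IL-33 replicate 7, at 57.4 CPM, and lay at 23.9, 32.3 and 55.2 CPM in vehicle and 17.8, 44.8 and 63.0 CPM in IL-33 tumors (0.29 ± 0.26). For Stat2 (chr10:128270559-128292849) the vehicle tumors lay at 79.7, 137 and 194 CPM and the IL-33 tumors at 59.0, 125 and 272 CPM, so that the median was lower and the maximum higher under IL-33 (0.11 ± 0.29). Usp18 (chr6:121245906-121270917) lay at 36.9, 51.4 and 133 CPM in vehicle and at 14, 60.7 and 162 CPM in IL-33 tumors, a spread of 11.6-fold for a log2 fold change of 0.27 ± 0.45. The match in the Stat2 promoter, shown because Stat2 codes for a part of the complex that binds such letters, is the farthest from a start site, 212 bases before it (chr10:128270256-128270305, plus strand).
Stat2: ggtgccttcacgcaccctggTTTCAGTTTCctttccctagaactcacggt

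The 6 genes of ADP-ribosylation, ubiquitin transfer and nuclear bodies (Parp9, its partner Dtx3l, Parp14, Herc6, Trim25 and Sp100) had log2 fold changes between 0.15 and 0.30 and none passed the test. Trim25 (chr11:88999376-89020293), the ubiquitin ligase that acts on RIG-I, was the steadiest gene of the list, with an SD of 0.29 on the log2 scale over the 16 tumors. It lay at 74.1, 113 and 127 CPM in vehicle tumors and at 82.7, 118 and 159.5 CPM in IL-33 tumors. With 4 IL-33 tumors above all vehicle tumors, its log2 fold change was 0.15 ± 0.15 (edgeR, adjusted p = 0.779). Parp9 (chr16:35938470-35972605), which shares 7.71% of its stretches of 50 bases with its head-to-head neighbour Dtx3l, lay at 25.4, 35.9 and 70.8 CPM in vehicle and at 24.2, 39.7 and 72.6 CPM in IL-33 tumors (0.23 ± 0.26). Dtx3l spanned 8.62 to 91.4 CPM and Parp14 30.3 to 192 CPM, both highest in IL-33 replicate 4. Herc6, the mouse ligase that attaches ISG15, spanned 16.3 to 115 CPM and shares 12.0% of its stretches with another annotated transcript, and Sp100, a nuclear body protein, spanned 26.4 to 119 CPM.

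The 5 remaining genes, Ifi44, Rtp4, Xaf1, Ifi35 and Samd9l, had log2 fold changes of 0.22, 0.28, 0.20, -0.24 and 0.28, and none passed. Over all tumors Ifi44 spanned 15.2 to 127 CPM, Rtp4 11.5 to 122 CPM and Xaf1 10.2 to 67.5 CPM. Samd9l, which restricts translation, was lowest in vehicle replicate 4 at 12.9 CPM against a median of 87.9 CPM in its group. Ifi35 was highest there, at 154 CPM against a median of 48.1 CPM. Per length the least abundant genes of the whole list were Ddx60 (3.13 CPM per kb), Cmpk2 and Rsad2 (both 4.20), and the most abundant Bst2, Isg15 and Irf7 (102).

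The spread itself was unequal between the groups. The SD of log2 CPM was larger among IL-33 than among vehicle tumors for 33 of 37 genes (89.2%), where 61.2% of all genes tested and 51.0% of the 8562 genes at least as abundant as the lowest member showed this. For Oas3 the SD was 1.49 under IL-33 against 0.42, for Ifi44 1.21 against 0.37, and for Irf7 1.26 against 0.52. The exceptions were Bst2, Ddx60, Dtx3l and Samd9l, all of which had their extreme value in vehicle replicate 4. Without IL-33 replicate 7 the IL-33 tumors were still the more variable for 30 of 37 genes (81.1%), against 36.0% of all genes tested and 30.6% of those at least as abundant. Over all 16 tumors the median SD was 0.84 for the members and 0.57 for all genes tested. These shares describe the tumors and were not tested. The 37 genes rise and fall together over the tumors (median correlation 0.75), so the counts are not 37 separate observations. Vehicle replicate 4 was kept in both comparisons.

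Vehicle replicate 4 was high for short and low for long transcripts of the list. Relative to the median of the 7 other vehicle tumors, 26 of 37 genes were lower there, with log2 differences from -2.87 (Samd9l) to 2.01 (Bst2). The highest were the short genes Bst2 (903 bases of exon), Ifi35 (1727), Isg20 (1860) and Isg15 (756), and the lowest Samd9l (5427), Ddx60 (8684), Dtx3l (5725) and Ifit2 (3927). Spearman's rho between exon length and this difference was -0.65 over the 37 genes and -0.56 over 8561 genes at least as abundant, across genes of 1 library. In IL-33 replicate 7 the corresponding rho over the members was 0.33, and 33 of 37 genes were below the median of the 7 other IL-33 tumors, by a median of -1.21. Irf9 (0.83) and Parp14 (0.56) were the clear exceptions in that tumor, while Oas3 (-3.97), Mx1 (-3.46) and Irf7 (-3.07) were the farthest below. The part of RNA quality or of the admixed tissue in these values was not tested.

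**Figure D4:**
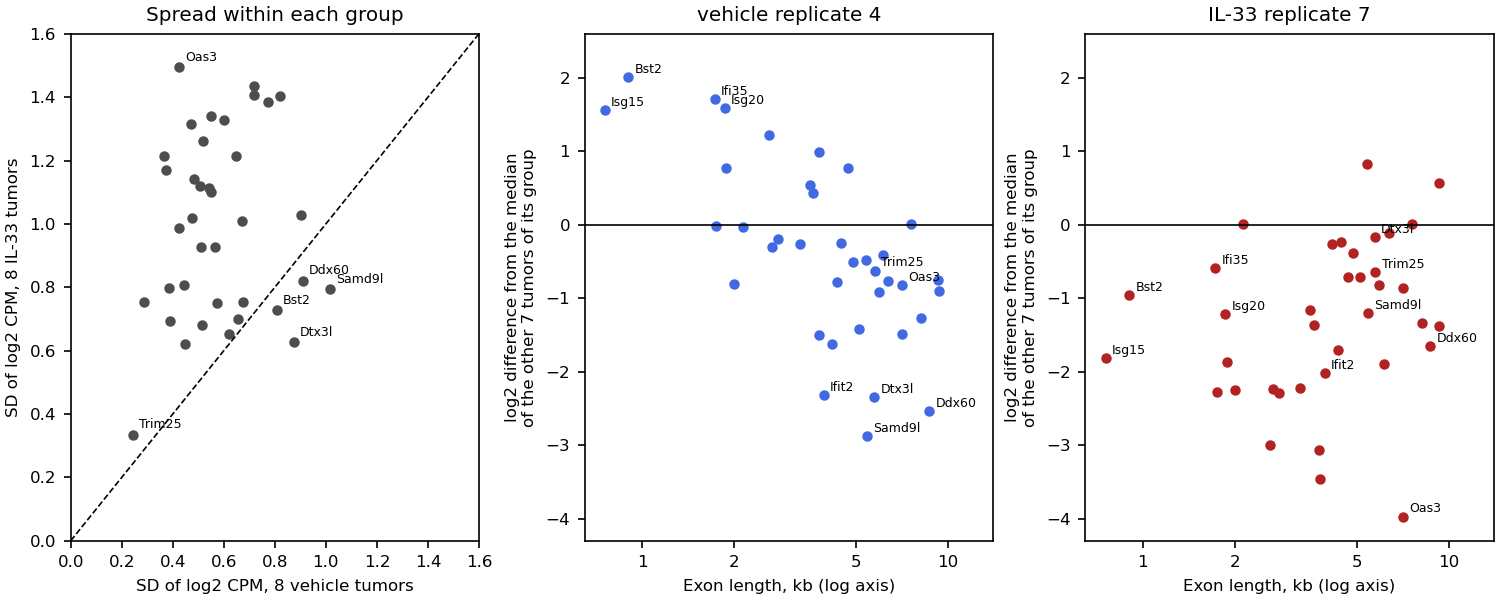
Left, SD of log2 CPM of each of the 37 genes in vehicle (horizontal) and IL-33 tumors (vertical), with a dashed line of equality; the other panels, log2 difference of each gene, in vehicle replicate 4 (middle) and IL-33 replicate 7 (right), from the median of the 7 other tumors of the group (vertical) against exon length in kb (horizontal, log axis). Points lie above the line for 33 genes, and in vehicle replicate 4 short genes such as Bst2 (2.01) are high and long ones such as Samd9l (-2.87) low.

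Markers of leukocytes, T cells and NK cells, but not of every immune cell type, were highest in the tumors where the interferon-stimulated genes were highest. The summed level of 5 leukocyte markers was 898, 886, 849.8 and 797 CPM in vehicle replicate 7 and IL-33 replicates 4, 3 and 8, and between 219 and 537 CPM in the 12 other tumors. All 6 T cell markers had these as their 4 highest tumors, with sums of 63.0, 50.6, 34.3 and 40.3 CPM against 3.87 to 20.3 CPM elsewhere, and so did 4 of 5 leukocyte markers and 4 of 5 NK cell markers. In vehicle replicate 6 the NK cell markers summed to 80.6 CPM, nearly as much as in vehicle replicate 7. Their sums were 81.3, 97.3, 97.1 and 90.8 CPM in these 4 tumors, in the same order. For plasmacytoid dendritic cells, the main makers of interferon alpha, the list was mixed. Its summed level was 95.5, 114, 80.4 and 114 CPM in these tumors and 84.3 to 140.1 CPM in the others, lowest of all in IL-33 replicate 3. The same 4 tumors were highest for 3 of its 7 genes, Siglech (2.72, 4.96, 2.83 and 3.71 CPM against at most 0.922 CPM elsewhere), Ccr9 and Klk1, while Tcf4, which other cells also express, was lowest in IL-33 replicate 3 at 46.5 CPM. Between the groups 0 of 5 leukocyte, 0 of 6 T cell, 0 of 5 NK cell and 0 of 7 macrophage markers passed the test (vehicle against IL-33 sums of 274 to 898 against 219 to 886 CPM for leukocytes). Of 7 plasmacytoid dendritic cell markers, 0 passed. Without IL-33 replicate 7, 1 of 5 NK cell and 1 of 7 plasmacytoid dendritic cell markers were higher at an unadjusted p under 0.05 (edgeR). In that fit 0 of 5 leukocyte, 0 of 6 T cell and 0 of 7 macrophage markers were higher, beside 1.83% of all genes. Its lowest adjusted p over all genes was 0.964. The same 4 tumors were highest for 1 of 7 macrophage, 1 of 6 conventional dendritic cell, 0 of 6 neutrophil, 0 of 5 B cell and 0 of 5 fibroblast markers. Summed, conventional dendritic cell markers were high in vehicle replicate 7 and IL-33 replicates 4, 3 and 8 (102, 134, 67.0 and 139 CPM). Elsewhere they reached at most 89.3 CPM (vehicle replicate 2). Macrophage markers summed to 1841, 1167, 1605 and 1094 CPM in the same order, and to 1555 CPM in vehicle replicate 4. Neutrophil markers summed to 726 CPM in vehicle replicate 4 and to no more than 164 CPM (IL-33 replicate 2) in any other tumor, and B cell markers were highest in vehicle replicate 2 (59.1 CPM). Epithelial markers were mixed in vehicle replicate 7 and IL-33 replicates 4, 3 and 8. The keratin Krt8 was low there, at 229, 165, 310 and 189.6 CPM, but also in IL-33 replicate 7 (181 CPM) and vehicle replicate 2 (285 CPM). Krt19 lay at 128, 45.9, 67.4 and 78.0 CPM in the same order. Cdh1 (2.56, 2.02, 2.93 and 2.37 CPM) and Epcam (0.218, 2.18, 0.586 and 1.34 CPM) were not low there. The part of the leukocyte content in the level of the interferon-stimulated genes was not tested.

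**Figure D5:**
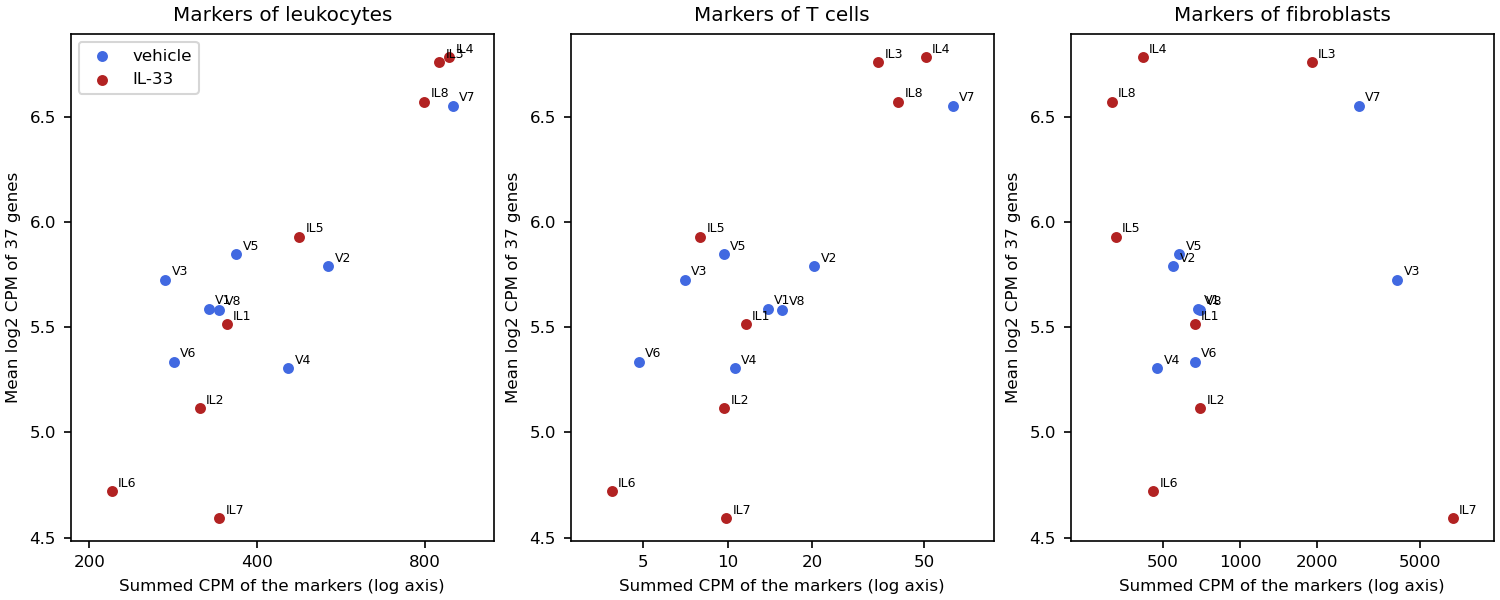
Mean log2 CPM of the 37 genes (vertical) against the summed CPM of marker genes of leukocytes, T cells and fibroblasts (horizontal, log axes) in each tumor, V for vehicle and IL for IL-33 replicates. The 4 tumors with the highest interferon-stimulated genes also have the highest leukocyte and T cell sums, 797 CPM and 34.3 CPM or more, and are scattered along the fibroblast axis.

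Few or no reads were counted on the interferon genes themselves. Of 21 interferon genes listed, 17 had a count of 0 in all tumors, among them 12 of the interferon alpha genes. This allows at most 3 counts per library for each, of reads that could be assigned to it. The handling of reads that map to several places is not given, so reads shared between interferon alpha genes may have gone uncounted. Ifnb1, the interferon beta gene, had 22 counts over 10 tumors and a highest level of 0.553 CPM (vehicle replicate 4), and Ifna5 had 1 count. Ifng, the type II interferon made by T and NK cells that raises several of the same genes, had 198 counts and was highest in vehicle replicate 7 (3.16 CPM), IL-33 replicate 4 (1.92), IL-33 replicate 8 (1.22) and IL-33 replicate 3 (1.07), with 0.864 CPM in vehicle replicate 2 and no more than 0.398 CPM elsewhere. These are the 4 tumors in which the 37 genes were highest. Neither Ifnb1 nor Ifng passed the test (edgeR, adjusted p = 0.825 for Ifnb1 and 0.993 for Ifng).

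None of the receptor chains and kinases of type I interferon passed the test. Ifnar1 spanned 43.9 to 80.0 CPM and Ifnar2 39.1 to 79.3 CPM, both highest in IL-33 replicate 7, with log2 fold changes of 0.10 ± 0.12 and 0.16 ± 0.15. Jak1 spanned 80.0 to 239 CPM (0.24 ± 0.17) and Tyk2 25.4 to 56.3 CPM (0.01 ± 0.14), both lowest in vehicle replicate 4. Of 9 receptors and kinases, 1 passed the unadjusted threshold, near the 9.99% of all genes that passed as higher. It was Ifnlr1, a receptor chain of interferon lambda (log2 fold change 2.30, edgeR, adjusted p = 0.424). Its level was 5.55 CPM in IL-33 replicate 7 and no more than 0.442 CPM elsewhere, and without that tumor it did not pass (log2 fold change 0.35). Irf1, which responds most to interferon gamma, lay at 243, 173, 201 and 136 CPM in vehicle replicate 7 and IL-33 replicates 4, 3 and 8, and at 169 CPM in vehicle replicate 2 (0.03 ± 0.42). Of 11 upstream sensing genes, 0 passed in either direction.

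A wider list of 59 further interferon-induced genes, of which 58 were tested, was described in the same way. In all tumors 0 were higher and 1 was lower at an unadjusted p under 0.05, 48 of 58 had a log2 fold change above 0, and the median was 0.18. The lower gene was Ifi27 (-0.75 ± 0.34, edgeR, adjusted p = 0.426), at 417 CPM in vehicle replicate 4, 73.3 to 89.3 CPM in the 7 other vehicle tumors and 53.2 to 92.0 CPM in IL-33 tumors. Without vehicle replicate 4 its log2 fold change was -0.17 ± 0.11 and it did not pass. Without IL-33 replicate 7, 4 were higher at that unadjusted threshold: Slfn4 (log2 fold change 1.15), a myeloid Schlafen gene, Ifi209 (0.77), Sp140 (0.33) and Rnf114 (0.31), all by edgeR and with an adjusted p of 0.964. That is 4 of 58 genes, beside the 1.83% of all genes given above. Of 16 fits that each left out 1 tumor, Slfn4 passed in 5, Ifi209 and Rnf114 in 2 each and Sp140 in 1. Ifi27 was again lower without IL-33 replicate 7 (-0.81), and passed in 10 of the 16 fits. Among 9 negative regulators only Socs3, a feedback inhibitor induced by several cytokines, passed the unadjusted threshold, at 104, 125 and 152 CPM in vehicle and 109.7, 152 and 187.5 CPM in IL-33 tumors (0.29 ± 0.12, edgeR, adjusted p = 0.418). That is 1 of 9 genes, near the 9.99% of all genes that passed as higher in this fit. Socs3 passed again without IL-33 replicate 7 (0.28), as 1 of 9 genes beside 1.83% of all genes higher in that fit. It passed in 14 of 16 fits that each left out 1 tumor, the exceptions being IL-33 replicate 2 (0.24) and vehicle replicate 8 (0.26).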

How the data were processed

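RNA of 16 tumors, 8 vehicle and 8 IL-33, was sequenced as poly(T)-selected mRNA from 1.3 µg of RNA, and the methods state that tumors with RNA of good quality were used. The deposited files hold raw read counts per Ensembl gene, 1 file per tumor, that the authors made. The submitters' processing notes name HISAT2, featureCounts and mm10, without versions, and the annotation release, the strand setting and the handling of reads that map to several places are not given in the sources used here. Without strand, overlapping genes cannot be told apart. Groups came from the sample titles. Of 22298 identifiers, 22255 received a symbol, and genes with at least 10 counts over all tumors were fitted (16817).

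Differences were tested with edgeR 4.0.16 (quasi-likelihood test, TMM factors, no covariate, Benjamini-Hochberg over all genes tested) in R 4.3.3. Alternatives were DESeq2 1.42.0, limma 3.58.1 (voom with sample quality weights), upper-quartile factors, 2 filters on low counts, a block on the replicate number and leaving out each tumor. Standard errors given with edgeR are the absolute log2 fold change over the square root of the F statistic. CPM are counts divided by the total of tested genes times the TMM factor. The mean over members used log2 CPM with a prior count of 2. Exact permutation tests were two-sided and used scipy 1.17.1. The fit was tested on simulated data. Motifs were searched in RefSeq promoters of GRCm38.p6. No per-sample column was left unused. No pair of tumors of a group agreed within sampling noise.

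All 37 members are accounted for. Values are given in full for members past an unadjusted p of 0.05, for the 3 highest and 3 lowest by mean CPM, for the 3 most and 3 least variable, and for Irf7, Isg15, Ifit1, Ifit3, Mx1, Oas1a, Stat2, Usp18 and Ifih1. From the pathway lists the ligands with at least 10 counts, Ifnar1, Ifnar2, Jak1, Tyk2, Irf1 and genes past an unadjusted p of 0.05 are named. The members and lists were chosen with earlier results of these data known. 1 gene of the pathway lists is not reported here. The promoter of Ifit1, the motif and the other genes named were chosen after values were seen.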

Additional observations from a re-analysis of the deposited data

Results flagged for a closer look

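In 17 of 76 checks, 1 for each gene and for the mean over the genes in each group, the highest or lowest tumor lay far from the other 7 by Dixon's test at the 95% level. Chance gives about 1 in 20 for a single check. The checks share tumors and correlated genes, so 1 unusual tumor is flagged for many genes and the count of 17 cannot be read against that rate. Vehicle replicate 4 accounted for 8 of the 17, vehicle replicate 7 for 7 and IL-33 replicate 7 for 2. Values are log2 CPM, with the nearest other tumor of the group in parentheses. Vehicle replicate 4 was low for Ifit2 at 3.41 (5.38), Eif2ak2 at 4.58 (5.52), Ddx58 at 4.35 (5.64), Ddx60 at 2.28 (4.21), Dtx3l at 3.13 (5.00), Trim25 at 6.21 (6.66) and Samd9l at 3.70 (6.24), and high for Isg20 at 7.02 (5.78). Vehicle replicate 7 was high for Ifit3 at 7.72 (6.80), Oasl2 at 7.40 (6.48), Dhx58 at 6.32 (5.39), Usp18 at 7.05 (6.02), Sp100 at 6.77 (5.89) and Ifi44 at 6.49 (5.84), and for the mean over the 37 genes at 6.55 (5.85). IL-33 replicate 7 was low for Oas3 at 2.85 (5.31) and Oasl1 at 3.79 (6.28).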

How the results depend on the processing

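The count of members past an unadjusted p of 0.05 was 0 in both directions under edgeR with every filter, scaling, block and left-out tumor and under DESeq2, and 1 (Oasl1, higher) under limma voom. In 23 other fits the smallest unadjusted p of a member was 0.0418 and the smallest adjusted p was 0.463. The median log2 fold change of the members ranged from 0.09 (without IL-33 replicate 3 or 4) to 0.41 (without vehicle replicate 7), and was 0.08 with the replicate block and 0.12 under voom. The difference of the mean over the members ranged from -0.12 to 0.20 over the left-out tumors. Of 37 members, 20 kept their direction in all 23 other fits and 17 reversed in at least 1.

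Over all genes, 1680 higher and 196 lower at an unadjusted p under 0.05 became 424 higher and 267 lower under DESeq2, 498 and 142 with filterByExpr, 522 higher and 444 lower under voom, and 286 higher and 392 lower under DESeq2 without IL-33 replicate 7, a setting chosen after seeing the data, in which 1 gene had an adjusted p under 0.05. Leaving out 1 tumor gave 289 (without IL-33 replicate 7) to 1902 higher and 111 (without vehicle replicate 4) to 362 lower (without IL-33 replicate 7), with 307 lower when IL-33 replicate 3 was left out and 126 when IL-33 replicate 5 was. The cause was not tested. The share of promoters with the motif was 25% with the longer motif.

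For same-numbered tumors of the groups, correlations of deviations from the group mean ran from -0.32 to 0.35. The labels do not say whether same-numbered tumors share a batch, and these correlations cannot settle it. With the replicate block the counts were 246 higher and 72 lower over all genes and 0 of the members. Values that reversed with the block were, on the log2 fold change scale, Ifit1 -0.10, Ifit3 -0.20, Isg15 -0.22, Oas1a -0.11, Oas3 -0.12, Eif2ak2 -0.083, Zbp1 -0.13, Stat2 -0.044, Usp18 -0.0025, Herc6 -0.12 and Ifi44 -0.11. The Ifit3b log2 fold change was -0.0319 with it. Under voom the reversed values were Ifit3 -0.038, Isg20 0.10, Eif2ak2 -0.10, Bst2 0.19 and Ifi35 0.017.

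Leaving out 1 tumor reversed Ifit1 (-0.054 to 0.32), Ifit3 (-0.17 to 0.33), Ifit3b (-0.020 to 0.50), Isg15 (-0.39 to 0.36), Isg20 (-0.31 to 0.23), Oas1a (-0.18 to 0.28), Oas3 (-0.048 to 0.34), Eif2ak2 (-0.15 to 0.15), Zbp1 (-0.072 to 0.53), Bst2 (-0.46 to 0.18), Stat2 (-0.066 to 0.23), Herc6 (-0.10 to 0.32), Rtp4 (-0.071 to 0.60), Xaf1 (-0.088 to 0.47) and Ifi35 (-0.52 to 0.069). These came without IL-33 replicates 3, 4 and 8, or vehicle replicate 4 for Isg20, Eif2ak2, Bst2 and Ifi35, and for Isg20 without IL-33 replicate 7 and for Isg15 without vehicle replicate 6 or 8. With 8 tumors a group the spread between tumors limits what can be told apart.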
